A study of Mus musculus with 6 samples.

Results

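The antioxidant and NRF2 pathway genes are a set of 41 named genes of glutathione, thioredoxin, peroxide and superoxide metabolism. They were chosen by gene symbol from the 55536 genes of the deposited count table, and all 41 were found in it. Polyadenylated RNA was sequenced from whole pancreatic islets, the clusters of beta, alpha, delta and other cells that make the pancreatic hormones. Control mice were Klf4+/+;Gcg-iCre and knockout mice Klf4fl/fl;Gcg-iCre, on a background given as C57B1/6J, with 3 libraries of each genotype and neither age nor sex stated. Both groups therefore carry Gcg-iCre, in which glucagon regulatory sequence drives Cre in alpha cells, a minority of the islet. KLF4 is a zinc finger transcription factor, and the study asked which genes it regulates in these cells.

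NRF2, encoded by Nfe2l2, is the transcription factor that raises antioxidant genes under oxidative or electrophilic stress. In unstressed cells KEAP1 binds NRF2 and hands it to a ubiquitin ligase for degradation. When reactive cysteines of KEAP1 are modified, NRF2 accumulates, pairs with a small MAF protein and binds antioxidant response elements. Its classical targets make glutathione, reduce thioredoxin, detoxify quinones and break down haem. Beta cells are known for low levels of several peroxide-removing enzymes, catalase among them.

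Libraries held between 101277200 and 110243918 counts. Values below are normalized read counts, the count divided by the library's size factor, and a gene passed the test at a DESeq2 adjusted p-value under 0.05 over all genes. Klf4 itself was at 3148, 2879 and 2015 in the 3 controls and at 2340, 2540 and 2277 in the 3 knockouts, values being listed here and below in the order of replicates 1 to 3. These ranges overlapped (log2 fold change -0.17 ± 0.15 SE, DESeq2 adjusted p = 0.774), and whole-islet counts per gene do not show which exons were read. Xist was at 77938 to 108108 in controls and at 12.4 to 30.2 in knockouts, while 4 of 4 Y-linked genes examined had 0 counts in every control library and were above the floor of 3 counts in every knockout library. Sex and genotype cannot be told apart in these libraries, so each difference below is between libraries that differ in both. Knockout replicate 1 stood apart in liver transcripts. Of the 5 hepatocyte markers, 2 (Apoa1 and Ahsg) rose in DESeq2, 3 had no adjusted p-value there, and 0 passed in edgeR. The 5 summed to 74766 in knockout replicate 1, to 2694 and 251 in knockout replicates 2 and 3, and to 206 to 492 in controls. Because the tissue is a mixture, fewer cells of a type and less RNA per cell cannot be told apart.

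Most of the antioxidant genes did not pass the test between the genotypes. Of the 41, 3 passed the test, or 7.32%, against 2.19% of the 17797 genes given an adjusted p-value. Hmox1 and Aldh1a1 rose in the knockout libraries, as did 1.53% of all genes, and Gpx3 fell, as did 0.657%. Without knockout replicate 1, Hmox1 alone passed. All 41 passed the filter on low counts and had an adjusted p-value. Their median log2 fold change was -0.03, beside -0.01 over all genes tested, and their median absolute log2 fold change was 0.10, beside 0.11. For 32 of the 41 the log2 fold change was between -0.2 and 0.2. The 95% confidence interval lay within a change of 1.5-fold either way for 30 of the 41. The edgeR quasi-likelihood test called 0 of the 41, with 7 at an unadjusted p under 0.05, and DESeq2 also had 7 at an unadjusted p under 0.05. Over all genes, 0.115% passed in edgeR, and 9.48% in edgeR and 9.03% in DESeq2 had an unadjusted p under 0.05.

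**Figure D1:**
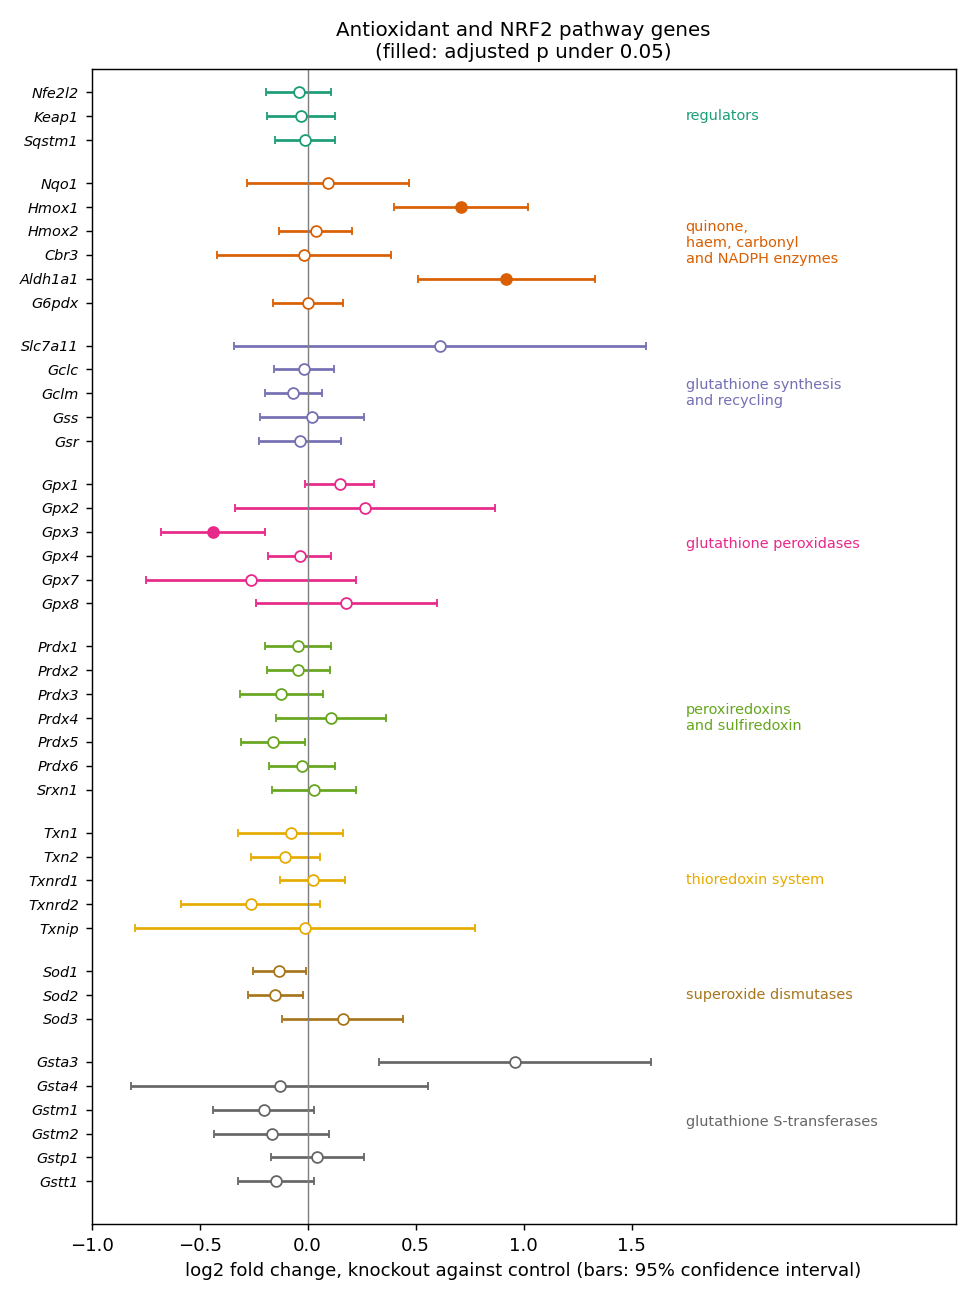
Log2 fold change of knockout against control for each of the 41 genes, grouped by role, with bars for the 95% confidence interval of the DESeq2 estimate (3 libraries per genotype). Filled points mark Hmox1 at 0.71, Aldh1a1 at 0.92 and Gpx3 at -0.44, and most open points lie close to 0.

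Transcript levels spanned more than 4 powers of 10 when compared per kilobase of annotated exon. Gpx3, the secreted glutathione peroxidase, was highest, at a mean of 44730 normalized counts per kilobase over the 6 libraries (34170 to 60990). Txnip, whose product binds and inhibits thioredoxin and which is known as a glucose-induced gene of beta cells, followed at 21990 per kilobase (11850 to 31470), and their library ranges did not overlap. Sqstm1 came next at 11170 per kilobase (10650 to 11950), just touching the lowest Txnip library. Sod1, Gpx4, Gpx1 and Gstm1 followed at 4369, 4026, 3876 and 3725 per kilobase, with library ranges that overlapped from one to the next. At the lower end lay Aldh1a1 at 111.3, Gsta4 at 59.5, Gsta3 at 38.0 and Slc7a11 at 2.32 per kilobase. Exon length here is the union of all annotated exons, so a gene with long rarely used exons appears lower than its main transcript would. The spread within a genotype was like that of other genes: the median coefficient of variation was 9.26% in controls and 5.38% in knockouts for the members, and 9.03% and 6.24% for the 15811 genes averaging 50 or more normalized counts.

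**Figure D2:**
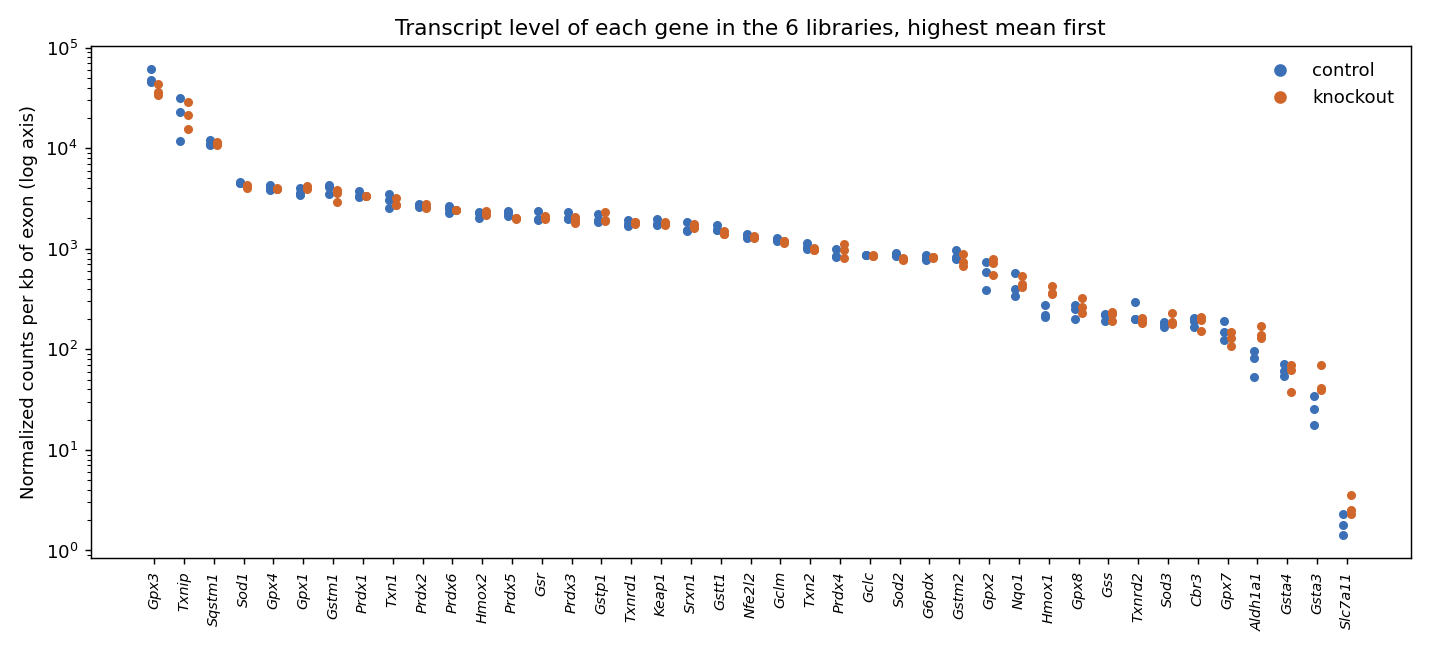
Level of each of the 41 genes in normalized counts per kilobase of annotated exon, on a log axis, ordered by the mean over 6 libraries, with 1 point per library (blue control, orange knockout). Gpx3 leads at 44730 and Slc7a11 is last at 2.32, and for most genes the 6 points lie within a narrow band.

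The regulators of the pathway did not differ beyond the spread between replicates. Nfe2l2 (GRCm38, chromosome 2, 75675513 to 75704641, minus strand) was at 5193, 5345 and 4814 in controls and at 5007, 5098 and 4806 in knockouts. The groups overlapped almost completely, and the 95% confidence interval of the difference ran from -12.5% to 7.75% (log2 fold change -0.04 ± 0.08 SE, DESeq2 adjusted p = 0.934). Keap1 (chromosome 9, 21229730 to 21239361) was at 8195, 8112 and 9267 in controls and at 8136, 8239 and 8628 in knockouts. Control replicate 3 was its highest library and the other 5 lay close together, with an interval from -12.3% to 8.99%. Sqstm1, which encodes p62, an autophagy receptor that sequesters KEAP1 and is itself an NRF2 target, had the smallest difference of the regulators, with a log2 fold change of -0.01 ± 0.07 (SE). None of the 3 passed in DESeq2 or edgeR, and 0 of the 3 had an unadjusted p under 0.05 in either.

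Nqo1, Srxn1, Txnrd1, G6pdx, Cbr3 and Hmox2 did not pass either. Nqo1, the quinone reductase often used as a readout of NRF2, was at 532.6, 624.0 and 883.7 in controls and at 834.9, 643.5 and 696.5 in knockouts. The control libraries spread more widely than the knockout libraries and enclosed all of them, and the interval from -17.8% to 38.3% leaves a moderate difference undetectable with 3 libraries per genotype. Srxn1, sulfiredoxin, which repairs overoxidized peroxiredoxins, was at 4359, 4233 and 5220 in controls and at 4498, 4644 and 4944 in knockouts. Txnrd1, the cytosolic thioredoxin reductase, was at 12637, 11995 and 13719 in controls and at 13220, 12591 and 13143 in knockouts. For both, the 3 knockout libraries fell inside the control range, and the intervals ran from -10.9% to 16.7% for Srxn1 and from -8.32% to 12.6% for Txnrd1. G6pdx, the X-linked gene for the enzyme that opens the pentose phosphate pathway and supplies NADPH, had a log2 fold change of 0.00 ± 0.08 (SE). Cbr3, a carbonyl reductase, was at -0.02 ± 0.21, and Hmox2, the constitutive haem oxygenase that is not an NRF2 target, at 0.04 ± 0.09.

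**Figure D3:**
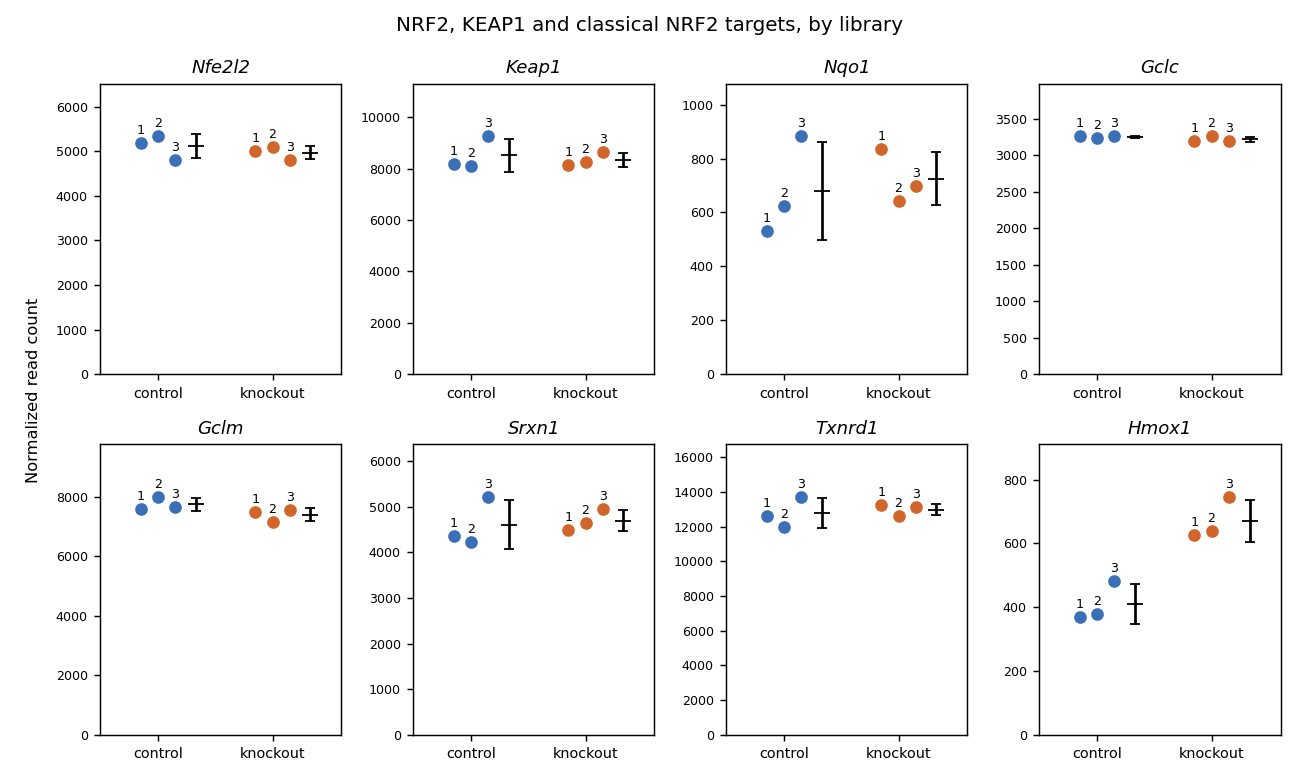
Normalized read counts of Nfe2l2, Keap1 and 6 classical NRF2 targets in each library, with replicate numbers beside the points and black bars for the mean ± SD of each genotype (n = 3). The genotypes overlap for Nfe2l2, Keap1, Nqo1, Gclc, Srxn1 and Txnrd1, they are narrowly apart for Gclm, and for Hmox1 all 3 knockout libraries, at 627.1 to 746.4, lie above the controls, at 369.0 to 481.6.

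To show the regulatory sequence for which NRF2 targets are known, the core of the antioxidant response element, TGACNNNGC, was searched on both strands of the RefSeq promoter windows (build GRCm38.p6), each 250 bases before to 50 bases after an annotated start, of which a gene can have several. Windows, 44 in all, were found for 35 of the 41 genes, the others being Gclc, Sod3, Gsr, Hmox1, Gsta4 and Prdx6, and 8 of the 35, or 22.9%, held the core, against 14.0% of 27025 genes with such windows. The core can overlap the AP-1 site TGACTCA, and of the 8 it did so in Prdx1 alone. The 8 matches are printed on the strand that reads TGACNNNGC, with the core in capitals and up to 12 neighbouring bases on each side. That of Txnrd1 lies at an internal start, downstream of the outermost start of the gene at 82833951.
Nfe2l2, chr2:75704883-75704913, minus strand: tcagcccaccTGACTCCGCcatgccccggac
Gclm, chr3:122245411-122245443, minus strand: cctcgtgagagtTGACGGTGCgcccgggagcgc
Srxn1, chr2:152105540-152105572, minus strand: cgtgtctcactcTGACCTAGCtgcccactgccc
Txnrd1, chr10:82859102-82859134, minus strand: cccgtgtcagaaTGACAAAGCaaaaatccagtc
Prdx1, chr4:116685454-116685486, minus strand: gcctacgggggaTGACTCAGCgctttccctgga
G6pdx, chrX:74428917-74428949, plus strand: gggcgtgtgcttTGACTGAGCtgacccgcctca
Sod1, chr16:90220694-90220726, minus strand: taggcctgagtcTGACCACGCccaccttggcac
Gsta3, chr1:21240452-21240484, plus strand: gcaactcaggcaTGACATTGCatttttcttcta
Among these 8 genes the median log2 fold change was -0.02, from -0.13 for Sod1 to 0.96 for Gsta3, and none of the 8 passed in DESeq2 or edgeR. The 27 genes whose windows held no core had a median of -0.03, and 2 of them, Aldh1a1 and Gpx3, passed. A match is a description of letters and not a site, and response elements can lie outside these windows.

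Hmox1 encodes haem oxygenase 1, the stress-induced enzyme that degrades haem to biliverdin, iron and carbon monoxide. The gene (chromosome 8, 75093621 to 75100589) was at 369.0, 380.2 and 481.6 in controls and at 627.1, 639.4 and 746.4 in knockouts. Every knockout library lay above every control. The mean rose from 410.3 ± 62.1 to 671.0 ± 65.6 (SD, n = 3 each), a difference of 0.71 ± 0.16 in log2 fold change (SE, DESeq2 adjusted p = 0.00122), 1.64-fold. It passed in each of the 6 fits that left out a library, with log2 fold changes of 0.63 to 0.84, and did not pass in edgeR, where the adjusted p was 0.177. Adjusted p-values spanned 3.07e-06 to 0.177 across 13 other settings of the fit without a block.

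Macrophages, which take up red cells and are known for strong Hmox1 expression, were followed through 9 marker genes. Of the 9, 4 rose in DESeq2 (Cd68, C1qb, C1qc and Mrc1, the mannose receptor), against 1.53% of all genes, and none fell. In edgeR 0 of the 9 passed. C1qa was at a log2 fold change of -0.27 and did not pass. The median log2 fold change of the 9 was 0.40, and 6 had an unadjusted p under 0.05 in DESeq2 and 5 in edgeR. Higher in every knockout library than in any control library were 6 of the 9, against 9.42% of all genes averaging 50 or more normalized counts. The summed level of the 9 was 12670, 12883 and 11774 in controls and 14506, 13242 and 12275 in knockouts. The sums overlapped, and none of the 9 was at 0. In each genotype, replicate 3 had the highest Hmox1 value and the lowest macrophage sum. The 5 erythroid markers, among them the globin genes, did not pass in DESeq2 or edgeR, with 0 at an unadjusted p under 0.05 in both, and summed to 1522 to 3475 in controls and 1871 to 3253 in knockouts. The part of these markers in the Hmox1 difference was not tested.

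Aldh1a1 encodes a retinaldehyde dehydrogenase that makes retinoic acid and oxidizes lipid aldehydes. The gene (chromosome 19, 20492715 to 20643465) was at 263.8, 404.2 and 472.1 in controls and at 834.9, 642.5 and 678.6 in knockouts. The groups did not overlap, and knockout replicate 1 was the highest library. The mean rose from 380.0 ± 106.2 to 718.7 ± 102.3 (SD, n = 3 each), a difference of 0.92 ± 0.21 in log2 fold change (SE, DESeq2 adjusted p = 0.00163), 1.89-fold. Without knockout replicate 1, the library high in liver transcripts, the log2 fold change was 0.80 and the DESeq2 adjusted p 0.11. In edgeR the adjusted p was 0.21, and across the 13 other settings without a block the range was 3.76e-05 to 0.21.

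Cell types other than liver also differed in their markers beside Aldh1a1. Of 8 mesenchymal markers 5 rose, namely Col1a1, Col1a2, Col3a1, Pdgfra and Dcn, and 3 of the 8 passed in edgeR. Acta2, the smooth muscle actin gene, was lower in every knockout library than in any control, at -0.29 in log2 fold change, and did not pass (DESeq2 adjusted p = 0.168). The summed level of the 8 was 53144 to 69145 in controls and 97488 to 104360 in knockouts. All 9 acinar markers had higher counts in every knockout library than in any control library, with a median log2 fold change of 1.15. Their summed level was 630873 to 1277280 in controls and 1599960 to 2261670 in knockouts. None of the 9 passed in DESeq2 or edgeR, although 9 had an unadjusted p under 0.05 in both. Of 6 duct markers 2 rose in DESeq2, Krt7 and Muc1, and 0 passed in edgeR. Sox9 and Cftr, also duct markers, were at -0.11 and -0.51 in log2 fold change and did not pass. The summed level of the 6 duct markers was 25474 to 28903 in controls and 31084 to 35765 in knockouts, without overlap. No mesenchymal, acinar or duct marker was at 0, and the part of any of these cell types in the Aldh1a1 difference was not tested.

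Glutathione peroxidases reduce hydrogen peroxide and lipid hydroperoxides with glutathione, and 1 of the 6 measured here passed. Gpx3 (chromosome 11, 54902453 to 54910377) was at 83449, 110579 and 85890 in controls and at 65374, 79332 and 61942 in knockouts. Every knockout library lay below every control, although the highest knockout and the lowest control were close. The mean fell from 93306 ± 15009 to 68883 ± 9211 (SD, n = 3 each), a difference of -0.44 ± 0.12 in log2 fold change (SE, DESeq2 adjusted p = 0.0234), a change of -26.2%. This call depended on single libraries. It was lost without control replicate 2 (-0.30, adjusted p = 0.254), control replicate 3 (-0.49, 0.154), knockout replicate 1 (-0.40, 0.325) or knockout replicate 3 (-0.37, 0.267), and it held without control replicate 1 or knockout replicate 2. In edgeR the adjusted p was 0.349, and across the 13 other settings without a block the range was 0.00476 to 0.349.

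Several alpha-cell markers also fell, but not the whole list. Of 6 listed, 4 fell in DESeq2 (Gcg, Irx2, Ttr and Slc38a5), against 0.657% of all genes, and 0 passed in edgeR. Irx1, at -0.37 in log2 fold change, did not pass (DESeq2 adjusted p = 0.0706), and Gc was at 0.00 (adjusted p = 0.998). The summed level of the 6, most of it Gcg, was 4063220 to 5861130 in controls and 2990970 to 3687680 in knockouts. Control replicate 2 was highest in its group both for Gpx3 and for this sum, and knockout replicate 2 was highest among the knockouts for both. The same libraries were also highest in their groups for the summed PP-cell, acinar and erythroid markers. In neither genotype was the lowest library for Gpx3 the lowest for the alpha-cell sum. Of 7 beta-cell markers 1 fell in DESeq2, Nkx6-1, and 0 passed in edgeR. The beta-cell sum overlapped between the genotypes, at 18603000 to 21698500 and 20832500 to 21146100. The part of cell composition in the Gpx3 difference was not tested.

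The other glutathione peroxidases did not pass in DESeq2 or edgeR. Gpx1, the ubiquitous cytosolic enzyme, was the nearest, at 0.15 ± 0.08 (log2 fold change ± SE, DESeq2 adjusted p = 0.507). It passed in the fit without control replicate 3, at 0.21 with an adjusted p of 0.0319. Gpx4, the enzyme that clears lipid hydroperoxides from membranes and guards against ferroptosis, was at -0.04 ± 0.07. Gpx2, known best from the gut epithelium, was at 0.27 ± 0.31, with controls from 1248 to 2370 and knockouts from 1757 to 2555. The endoplasmic reticulum enzymes Gpx7 and Gpx8 were at -0.26 ± 0.25 and 0.18 ± 0.21, with intervals of -40.4% to 16.6% and -15.2% to 51.2%. Single libraries moved these 3 values: Gpx2 was at 0.05 without control replicate 1 and 0.49 without control replicate 3, Gpx7 at -0.40 and -0.08 without the same libraries, and Gpx8 at 0.29 without knockout replicate 1 and 0.03 without knockout replicate 2.

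Genes of glutathione synthesis and recycling gave 0 calls of 5 in both tests, and 0 of 5 had an unadjusted p under 0.05. Gclc, the catalytic subunit of the rate-limiting enzyme, was the steadiest of all 41 genes, at 3265, 3237 and 3262 in controls and at 3196, 3262 and 3199 in knockouts. Its highest and lowest libraries differed by a factor of 1.02, and the interval of the difference ran from -10.2% to 8.87%. Gclm, the modifier subunit, was at 7571, 7992 and 7648 in controls and at 7494, 7130 and 7554 in knockouts. The Gclm groups did not overlap, by a narrow margin, and the interval from -12.9% to 4.80% includes 0. Gss, glutathione synthetase, was at 0.02 ± 0.12 and Gsr, which regenerates reduced glutathione, at -0.03 ± 0.10 (log2 fold change ± SE).

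Slc7a11, the cystine transporter xCT that feeds glutathione synthesis and is strongly induced by NRF2 and ATF4 in many cells, was nearly silent in these islets. Its normalized counts were 19.8, 25.0 and 31.8 in controls and 32.1, 35.1 and 49.9 in knockouts. The lowest knockout lay just above the highest control. The difference of 0.61 ± 0.49 in log2 fold change (SE, DESeq2 adjusted p = 0.736) has an interval from -21.0% to 196.0%, so these counts place few limits on the difference.

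Peroxiredoxins are abundant thiol peroxidases, and none of the 6, nor Srxn1, passed in DESeq2 or edgeR. The 7 log2 fold changes lay between -0.16 and 0.11, with 1 of 7 at an unadjusted p under 0.05 in each test. That gene was Prdx5, which is found in mitochondria, peroxisomes and cytosol. It was at 4520, 4819 and 5045 in controls and at 4326, 4238 and 4321 in knockouts. Every Prdx5 knockout value lay below the controls, and the log2 fold change was -0.16 ± 0.08 (SE, DESeq2 adjusted p = 0.376). Prdx3, the mitochondrial enzyme, was at -0.12 ± 0.10, and Prdx4, the X-linked gene of the endoplasmic reticulum enzyme, at 0.11 ± 0.13. Prdx3 was at -0.05 without control replicate 3 and -0.17 without knockout replicate 3. Prdx1, Prdx2 and Prdx6, the cytosolic enzymes, were at -0.04, -0.04 and -0.03.

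Superoxide dismutases convert superoxide to hydrogen peroxide, and the 2 intracellular enzymes had slightly lower counts in every knockout library. Sod1, the copper and zinc enzyme of the cytosol, was at 17945, 18466 and 17986 in controls and at 16037, 17038 and 16604 in knockouts. Sod2, the manganese enzyme of mitochondria, was at 8696, 8562 and 9045 in controls and at 7775, 8065 and 7864 in knockouts. For both genes the gap between the genotypes exceeded the SD of either, with changes of -8.67% (interval -16.1% to -0.621%) and -9.88% (interval -17.5% to -1.53%). Neither passed over all genes, with DESeq2 adjusted p-values of 0.374 and 0.29 and edgeR adjusted p-values of 0.535 and 0.418. The share of counts from mitochondrial genes was also lower in every knockout library, at most 2.72%, than in any control, at least 2.76%, and its part in these differences was not tested. Sod3, the extracellular enzyme, was at 0.16 ± 0.14 (log2 fold change ± SE), and knockout replicate 1 was its highest library. Without that library Sod3 was at 0.04.

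Over the 40 members averaging 50 or more normalized counts, the genotypes did not overlap for 9, or 22.5%, against 18.0% of the 15811 genes of that level. These were the 3 higher genes Hmox1, Aldh1a1 and Gsta3 and the 6 lower genes Gpx3, Gclm, Prdx5, Sod1, Sod2 and Gstt1. Among all genes of that level, 9.42% were higher and 8.54% lower without overlap, beside 3 and 6 of the 40 members.

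In the thioredoxin system 0 of 5 genes passed in DESeq2 or edgeR, and 0 of 5 had an unadjusted p under 0.05. Txn1 and Txn2, the cytosolic and mitochondrial thioredoxins, were at -0.08 ± 0.12 and -0.10 ± 0.08 (log2 fold change ± SE), and Txnrd2, the mitochondrial reductase, at -0.26 ± 0.16. Txn2 was at -0.04 without control replicate 3 and -0.15 without control replicate 1. Txnrd2 was at 1304 in control replicate 3 and at 801.9 to 893.1 in the other 5 libraries. Txnip, given in every library because of the spread seen in its values, had the highest coefficient of variation of the 41 genes among controls, 44.5%, and among knockouts it was 30.2%, below that of Gsta3 at 33.9%. Its counts were 98292, 71662 and 37008 in controls and 66910, 89726 and 48520 in knockouts. Replicate 3 was the lowest library of both genotypes, and the interval of the genotype difference ran from -42.6% to 71.1%.

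Glutathione S-transferases join glutathione to electrophiles, and 0 of 6 passed in DESeq2 or edgeR, with 1 of 6 at an unadjusted p under 0.05 in each. Gsta3, an alpha-class enzyme with steroid isomerase activity, had the largest log2 fold change of all members, 0.96 ± 0.32 (SE, DESeq2 adjusted p = 0.0897). It was at 110.1, 149.8 and 76.4 in controls and at 303.2, 180.5 and 170.6 in knockouts. The groups did not overlap, and knockout replicate 1, the library high in liver transcripts, was far above the rest. The part of those transcripts was not tested. Without that library the log2 fold change was 0.65 with an adjusted p of 0.759, and without control replicate 2 it was 1.23 with an adjusted p of 0.049. Gstt1, the theta-class enzyme, was at 2335, 2604 and 2325 in controls and at 2128, 2300 and 2143 in knockouts, a narrow separation with -0.15 ± 0.09 in log2 fold change (SE, DESeq2 adjusted p = 0.587). Gstm1 and Gstm2 were at -0.20 ± 0.12 and -0.17 ± 0.14, Gsta4 at -0.13 ± 0.35 and Gstp1 at 0.04 ± 0.11. Gstm1 was at -0.10 without knockout replicate 3 and -0.29 without control replicate 3. Gstm2 was at -0.07 without control replicate 2 and -0.29 without knockout replicate 2. Gsta4, Gstt1 and the Gstm and Gstp genes have related genes nearby in the genome, and Gsta3 has related genes on another chromosome. Reads can be shared or lost between such copies, so the counts of these genes are uncertain.

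**Figure D4:**
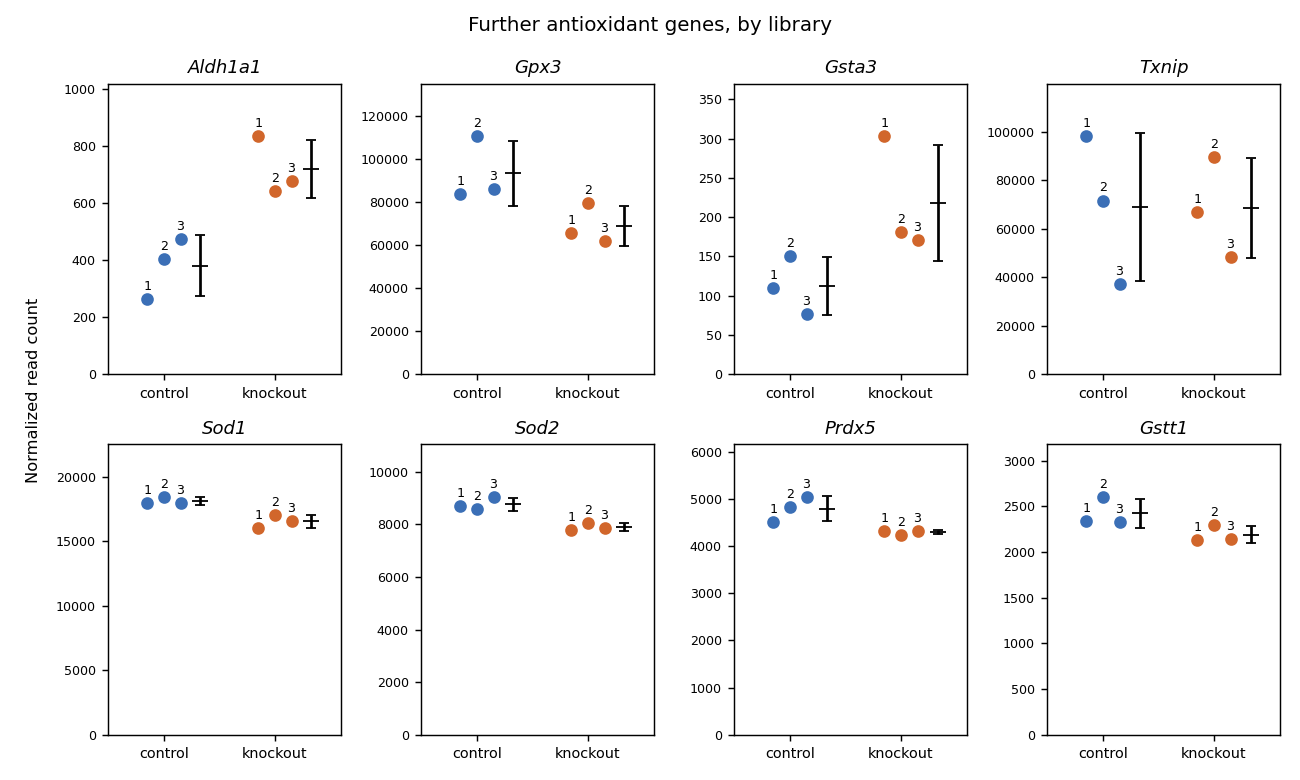
Normalized read counts of 8 further antioxidant genes in each library, with replicate numbers beside the points and black bars for the mean ± SD of each genotype (n = 3). Aldh1a1 and Gsta3 are higher in every knockout library, Gpx3, Sod1, Sod2, Prdx5 and Gstt1 are lower in every knockout library, and Txnip spans 37008 to 98292 with overlap.

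Among the 41 genes, control replicate 3 held the highest control value for 25, or 61.0%, compared with 41.0% of all genes with a mean of at least 50. Control replicate 1 held the lowest control value for 23 of the 41, and the share over all genes was not computed for lowest values. Among the knockouts the highest values were divided as 13, 15 and 13 between replicates 1 to 3. Nqo1, Txnrd2, Gsr and Txn1 were among the genes highest in control replicate 3, and without it the log2 fold change of Nqo1 was 0.33 in place of 0.09 and that of Txnrd2 -0.05 in place of -0.26.

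A further 72 genes of the pathway were examined as a second list, of which 70 entered the fit and 65 had an adjusted p-value. Of these, 1 passed, or 1.54%, against 2.19% of all genes, and 0 passed in edgeR, with 11 in DESeq2 and 10 in edgeR at an unadjusted p under 0.05. Their median log2 fold change was 0.03. Ggt1, the gamma-glutamyl transferase that starts the breakdown of extracellular glutathione, was at 335.3, 501.2 and 333.1 in controls and at 563.8, 859.1 and 719.5 in knockouts. Every knockout value exceeded the controls, and Ggt1 rose by 0.87 ± 0.21 in log2 fold change (SE, DESeq2 adjusted p = 0.00326). The call was lost without control replicate 1 (0.77, adjusted p = 0.0654), knockout replicate 2 (0.72, 0.0996) or knockout replicate 3 (0.87, 0.0579) and in edgeR (0.87, 0.234). Control replicate 2 and knockout replicate 2, its highest libraries in each genotype, were also those with the highest summed acinar markers. The summed alpha-cell, PP-cell and erythroid markers were highest in the same libraries. The part of any of these in the Ggt1 difference was not tested.

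By role, the 12 genes of glutathione turnover and transport, Ggt1 among them, held the 1 call, with 5 at an unadjusted p under 0.05 in DESeq2 and 4 in edgeR. Of the 11 with a mean of at least 50, 4 were higher in every knockout library than in any control and 0 lower, or 36.4% against 18.0% of all genes. Chac1, which degrades glutathione inside the cell, was at 0.84 ± 0.40 (log2 fold change ± SE, DESeq2 adjusted p = 0.383). Its genotypes overlapped, with 698.9 to 1818 in controls and 1813 to 2502 in knockouts. Chac1 passed with the replicate number as a block, as well as without control replicate 3. The other roles gave no call. Of 8 partners and regulators of NRF2, 0 passed in DESeq2 or edgeR, with 1 and 0 at an unadjusted p under 0.05. Bach1, the haem-sensing repressor that competes with NRF2 at Hmox1 and other targets, was at 5398, 4569 and 4311 in controls and at 5094, 4983 and 4706 in knockouts, all inside the control range. Its interval ran from -9.50% to 18.4%. Of 15 genes of hydrogen peroxide removal and thiol repair and 18 further glutathione transferases none passed in DESeq2 or edgeR, with 2 and 1 at an unadjusted p under 0.05 in DESeq2 and 3 and 2 in edgeR. Glrx5, from the first of these groups, was lower in every knockout library than in any control, at -0.28 ± 0.09 (log2 fold change ± SE, DESeq2 adjusted p = 0.0647). It passed without control replicate 2. None of 7 genes of NADPH supply passed in DESeq2 or edgeR, with 1 of 7 at an unadjusted p under 0.05 in each test. None of 12 iron, haem and phase II genes passed in either test, with 1 at an unadjusted p under 0.05 in DESeq2 and 0 in edgeR. For 15 of the 63 list genes with a mean of at least 50 the genotypes did not overlap, or 23.8% against 18.0% of all genes. Of the 15, 12 were higher and 3 lower in knockouts, where all genes gave 9.42% higher and 8.54% lower.

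Cat, catalase, which splits hydrogen peroxide in peroxisomes, was at 1466, 1580 and 1589 in controls and at 3815, 1830 and 1798 in knockouts. Knockout replicate 1 stood far above the other 5 libraries: the log2 fold change was 0.68 ± 0.37 (SE, DESeq2 adjusted p = 0.481) with all libraries and 0.23 without that library, with an adjusted p of 0.559. Mgst1, a microsomal glutathione transferase abundant in liver and named after its values were seen, had the same pattern, at 333.3, 313.9 and 335.2 in controls and at 1282, 402.2 and 402.2 in knockouts. Its log2 fold change of 1.09 was 0.30 without knockout replicate 1. The hepatocyte gene Alb, serum albumin, was at 51331 in that library, at 1743 and 121.7 in knockout replicates 2 and 3 and at 103.2 to 213.1 in controls. The part of liver transcripts in the Cat and Mgst1 differences was not tested.

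**Figure D5:**
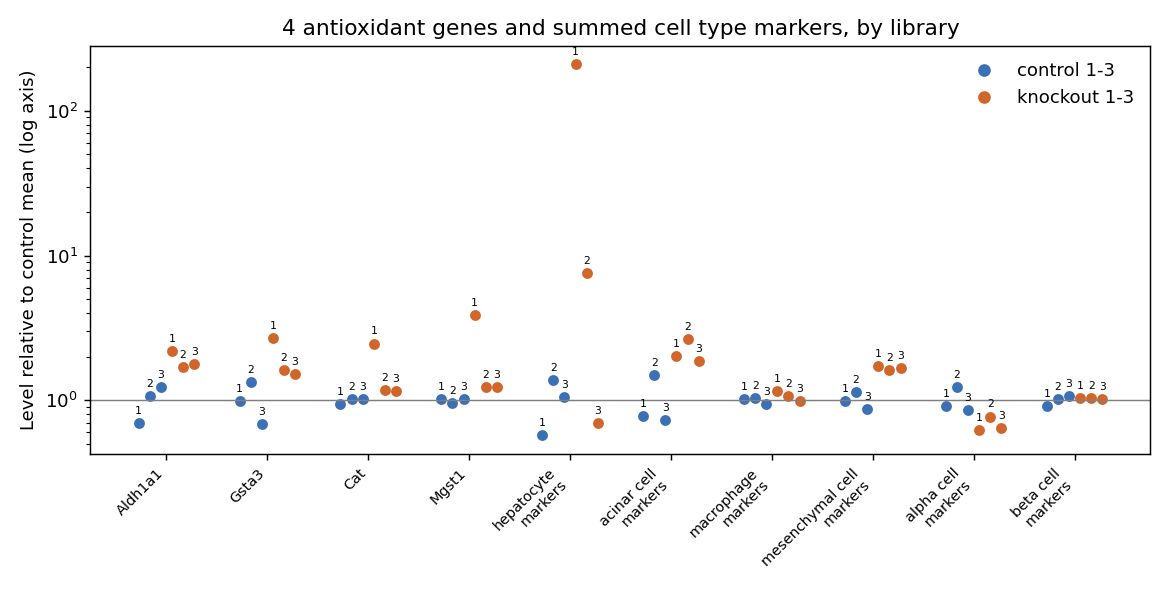
Levels of Aldh1a1, Gsta3, Cat and Mgst1 and the summed levels of 6 cell type marker lists in each library, divided by the control mean, on a log axis with replicate numbers beside the points (blue control, orange knockout). Knockout replicate 1 is the highest library for these 4 genes and for the hepatocyte markers, acinar and mesenchymal markers are high in all 3 knockouts, and beta-cell markers lie close to 1.

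The exons of 10 of the 41 genes overlap exons of another annotated gene, namely Keap1, Sqstm1, Hmox2, G6pdx, Gclm, Gss, Prdx2, Prdx5, Txnrd2 and Txnip. Since the strand setting of the counting is not given in the sources used here, their counts may include reads of the neighbour. Hmox1, Aldh1a1 and Gpx3 have no such overlap. Of the 41, only G6pdx and Prdx4 lie on the X chromosome, and neither passed.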

How the data were processed

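The authors deposited 1 table of raw read counts for 6 islet libraries, with no scaling applied. Trimming with cutadapt is recorded in the table's name. FastQC, STAR, featureCounts, DESeq2 and build mm10 are named in the submitters' processing notes, with versions and strand setting not given in the sources used here. All 55536 gene identifiers and symbols match the GENCODE annotation of GRCm38 in release M21, which gave coordinates and exon lengths. Column names gave genotype and replicate, and 0 columns were left unused.

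DESeq2 with no batch term is the test stated in the submitters' design description, and version 1.42.0 (R 4.3.3) was used: median-of-ratios size factors, genotype as the single term, genes with at least 10 counts in total, unshrunken log2 fold changes and Benjamini-Hochberg adjustment over all genes at 0.05. The script was tested on simulated data. Intervals are 95% Wald intervals. Alternatives were edgeR 4.0.16 (quasi-likelihood, TMM), TMM or total-count scaling, other filters, an adjusted p of 0.1, the replicate number as a block and leaving out each library.

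The genes, lists and tests were chosen with earlier results of these data known. Values in every library are given for members past the threshold, for members with a mean of at least 50 whose groups do not overlap, and for 9 fixed genes (Nfe2l2, Keap1, Nqo1, Hmox1, Gclc, Gclm, Slc7a11, Srxn1, Txnrd1). Txnip was added after its values were seen, as were Mgst1, Chac1 and Glrx5. Of the second list, genes past the threshold, Cat and Bach1 are given, and Klf4 as the check of the labels. Marker lists of alpha, beta, delta, PP, acinar, duct, endothelial, mesenchymal, Schwann, adipose, liver, lymphoid and erythroid cells and macrophages followed the tissue make-up. Of those not described with a gene, the delta, PP, endothelial, Schwann and lymphocyte lists gave 0 calls in DESeq2 and edgeR, with 1, 0, 1, 0 and 2 genes at an unadjusted p under 0.05 in DESeq2. The 4 adipocyte markers summed to 1.89 to 18.6 normalized counts, with Lep at 0.

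A floor of 3 counts equals 0.0272 to 0.0296 CPM. Floors and intervals cover counting error or library spread only, since molecular identifiers are not mentioned. Replicate pairs differed by 40.0 to 120.0 times their chi-square degrees of freedom, so none was 1 library deposited again. The labels do not say that libraries came from separate animals. The p-values compare the genotype difference with the variation between these libraries, and need not extend to variation between animals.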

Additional observations from a re-analysis of the deposited data

How the results depend on the processing

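The count of members past the threshold was 3 and became 0 in edgeR and 4 at an adjusted p of 0.1, with Gsta3 added. It was 1 to 3 across the 6 fits that left out a library, the 1 being Hmox1 without knockout replicate 1. The members called also changed: they were Aldh1a1, Gsta3 and Hmox1 without control replicate 2, and Aldh1a1, Gpx1 and Hmox1 without control replicate 3. The second list gave 1 gene, and 0 in edgeR, 2 at an adjusted p of 0.1, 2 with the replicate block (Ggt1 and Chac1), and 0 to 4 when a library was left out. Over all genes 389 passed, against 29 in edgeR, 614 at an adjusted p of 0.1, and 153 to 952 when a library was left out, lowest without knockout replicate 1 and highest without control replicate 3. The cause was not tested. Higher calls were 272 of the 389, and 24 of 29 in edgeR. With the replicate block 405 genes passed, 281 of them among the 389, and the same 3 members were called. Same-numbered libraries did not deviate together (correlations of -0.048, -0.059 and 0.01), so the numbers were not taken to pair samples.

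Of 574 values of single members under the alternatives, 531 kept direction and call, 8 lost the call, 2 gained it and 33 had the opposite sign. A lost call did not need a smaller difference: in edgeR Hmox1 was at 0.71 and Aldh1a1 at 0.92, as in DESeq2, and Gpx3 was at -0.49 without control replicate 3. Those sign changes were of genes near 0 and none passed the test in any such fit. The cause was not tested. Leaving out a library gave log2 fold changes of -0.067 to 0.032 for Keap1, -0.048 to 0.036 for Sqstm1, -0.056 to 0.326 for Nqo1, -0.025 to 0.075 for Hmox2, -0.109 to 0.103 for Cbr3, -0.037 to 0.047 for G6pdx, -0.055 to 0.104 for Gss, -0.095 to 0.065 for Gsr, -0.074 to 0.012 for Gpx4, -0.086 to 0.023 for Prdx1, -0.0059 to 0.2187 for Prdx4, -0.083 to 0.036 for Prdx6, -0.029 to 0.128 for Srxn1, -0.191 to 0.042 for Txn1, -0.021 to 0.077 for Txnrd1, -0.313 to 0.33 for Txnip, -0.304 to 0.093 for Gsta4, -0.053 to 0.122 for Gstp1 and -0.016 to 0.149 for Bach1. Txnip was also 0.0556 with the replicate block. The fits of Bach1, Ggt1, Cat and Mgst1 were added after seeing the data. Slc7a11 had the lowest mean counts of the members, 25.5 in controls and 39.0 in knockouts, and the largest SE, 0.49.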
